A study of Homo sapiens and Mus musculus with 41 samples.

Results

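The genes described here are the ATP-binding cassette (ABC) transporter family, taken as every gene whose symbol is ABC, a subfamily letter from A to G and a number, with the mouse suffix a or b allowed. By that rule 46 of the 23368 genes listed for each human model were members, and 50 of the 23337 genes listed for the mouse model. Membership went by the symbol and not by a measured value, although the family itself was picked with earlier results of these data known. The study measured poly(A) RNA by sequencing in cultured cancer cell lines and in derivatives that were passed through mice, with 41 libraries in all. Its 4 models were HCC1954, from a grade III invasive ductal carcinoma of the breast with raised HER2, MDA-MB-231, from a grade IV ductal breast carcinoma without hormone receptors or HER2, PC9, a human lung adenocarcinoma line with raised EGFR, and LLC, a spontaneous lung carcinoma of a C57/B6 mouse. In each model the parental line (Par), an intermediate derivative (Int), a leptomeningeal metastatic derivative (Lep) and a brain metastatic derivative (BrM) were sequenced. Par, Int, Lep and BrM had 3, 2, 3 and 2 libraries in HCC1954, 3, 2, 2 and 3 in both MDA-MB-231 and PC9, and 3, 2, 3 and 3 in LLC. All lines carried a green fluorescent protein marker, and the labels describe cells that were rinsed from the leptomeninges of mice, grown until all were positive for it and passaged 3 times before RNA was taken. How the BrM derivatives were made is not described in the sources used here. The labels call the Par replicates technical and the Int and Lep replicates a mix of biological and technical, without saying which is which, so p-values measure the spread between these libraries, which may be technical.

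ABC proteins bind and hydrolyse ATP and, in most members, use that energy to move a substrate across a membrane. Members of subfamilies B, C and G that pump drugs and their glutathione, glucuronide or sulfate conjugates out of cells are known for multidrug resistance, and at the blood-brain and blood-cerebrospinal fluid barriers they limit what enters the brain. Subfamily A and part of G move phospholipid and cholesterol, among them ABCA1 and ABCG1, which load cholesterol onto lipoprotein particles and are classic targets of the liver X receptors. Other B members act in mitochondria and lysosomes, D members import fatty acids into peroxisomes or release cobalamin from lysosomes, and E and F members have no membrane part and act in translation.

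Values are the authors' normalized counts, which put the libraries of a model on a common scale. Differences are between stage means of log2(value + 1) with a standard error (SE) from limma's fit over all libraries of a model, so they understate changes in weakly expressed genes. A gene is called higher or lower, and said to rise or fall, where the adjusted p is below 0.05 and the difference is at least 1 in size. Within a model, the comparisons of Lep, Int and BrM with Par share the same Par libraries, so they are set side by side and not counted as independent. Library totals ran from 16792027 to 110830546 reads and moved with the stage. Both Int libraries were the deepest in HCC1954, at 67210373 and 67367833 reads against at most 33871657 elsewhere. The same held in MDA-MB-231, at 96283309 and 110830546 against at most 67354695, and in LLC. In PC9 Int and Lep had 28657904 to 38432963 reads, and Par and BrM 16792027 to 23781567. The part of depth in the results was not tested. All 5 epithelial markers were expressed in every library of HCC1954 and PC9, with CDH1 at 6466 normalized counts or more, but in HCC1954 KRT19 went from 42800 to 43300 in Par to 322.5 to 967.1 in the derivatives and KRT18 from 43710 to 44310 in Par to 10500 to 11130 in Lep. MDA-MB-231 had high VIM, at 223200 to 431100, and CDH1 at 19.48 or less in 9 of 10 libraries but 306.3 in Par 1, so that this library stood apart. In LLC Epcam was at most 2.556 and Cdh1 at most 4.756, with Krt8 between 862.7 and 10290. The raised EGFR of PC9 was seen in Par and BrM, at 9147 to 15120, and was 1527 to 1928 in Int and Lep.

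A member was tested in a model where it reached 10 normalized counts in at least 2 libraries. That left 32 of 46 members in HCC1954, 32 of 46 in MDA-MB-231, 30 of 46 in PC9 and 34 of 50 in LLC. In the human models 28 members were tested in all 3, 3 members in 2 of them (ABCC11, ABCG1 and ABCG4) and 4 in 1 of them, namely ABCA6, ABCA10 and ABCC9 in MDA-MB-231 and ABCB11 in HCC1954. The other 11, which were tested in none, were ABCA8, ABCA9, ABCB1, ABCB4, ABCB5, ABCC8, ABCC12, ABCC13, ABCD2, ABCG5 and ABCG8. ABCB1 encodes P-glycoprotein, the best known multidrug pump, and its highest value in any library was 8.75 normalized counts in HCC1954, 3.08 in MDA-MB-231 and 1.47 in PC9. In LLC the mouse counterparts Abcb1a and Abcb1b both passed. The highest value among members that were not tested was 9.38 in HCC1954, 5.98 in MDA-MB-231, 18.3 in PC9 and 23.0 in LLC.

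On the scale of mean normalized counts per kilobase of the longest coding transcript, which allows levels to be compared between genes, conjugate pumps led in 2 of the 3 human parental lines. In HCC1954 Par the order began with ABCC3 at 2676, ABCC2 at 2094 and the translation factor ABCF1 at 1639. In PC9 Par it began with ABCC2 at 2410 and ABCC3 at 1626, ahead of ABCF2 at 1145. In MDA-MB-231 Par the first 4 places were held by the translation factors ABCF1 at 6756, ABCE1 at 3815, ABCF3 at 2203 and ABCF2 at 2195. In the derivatives of PC9 ABCC3 led, at 1969 in Int, 2080 in Lep and 1480 in BrM. In the HCC1954 derivatives neither ABCC2 nor ABCC3 was among the first 4, and ABCF1 led at 2328 in Int, 1990 in Lep and 2456 in BrM.

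**Figure D1:**
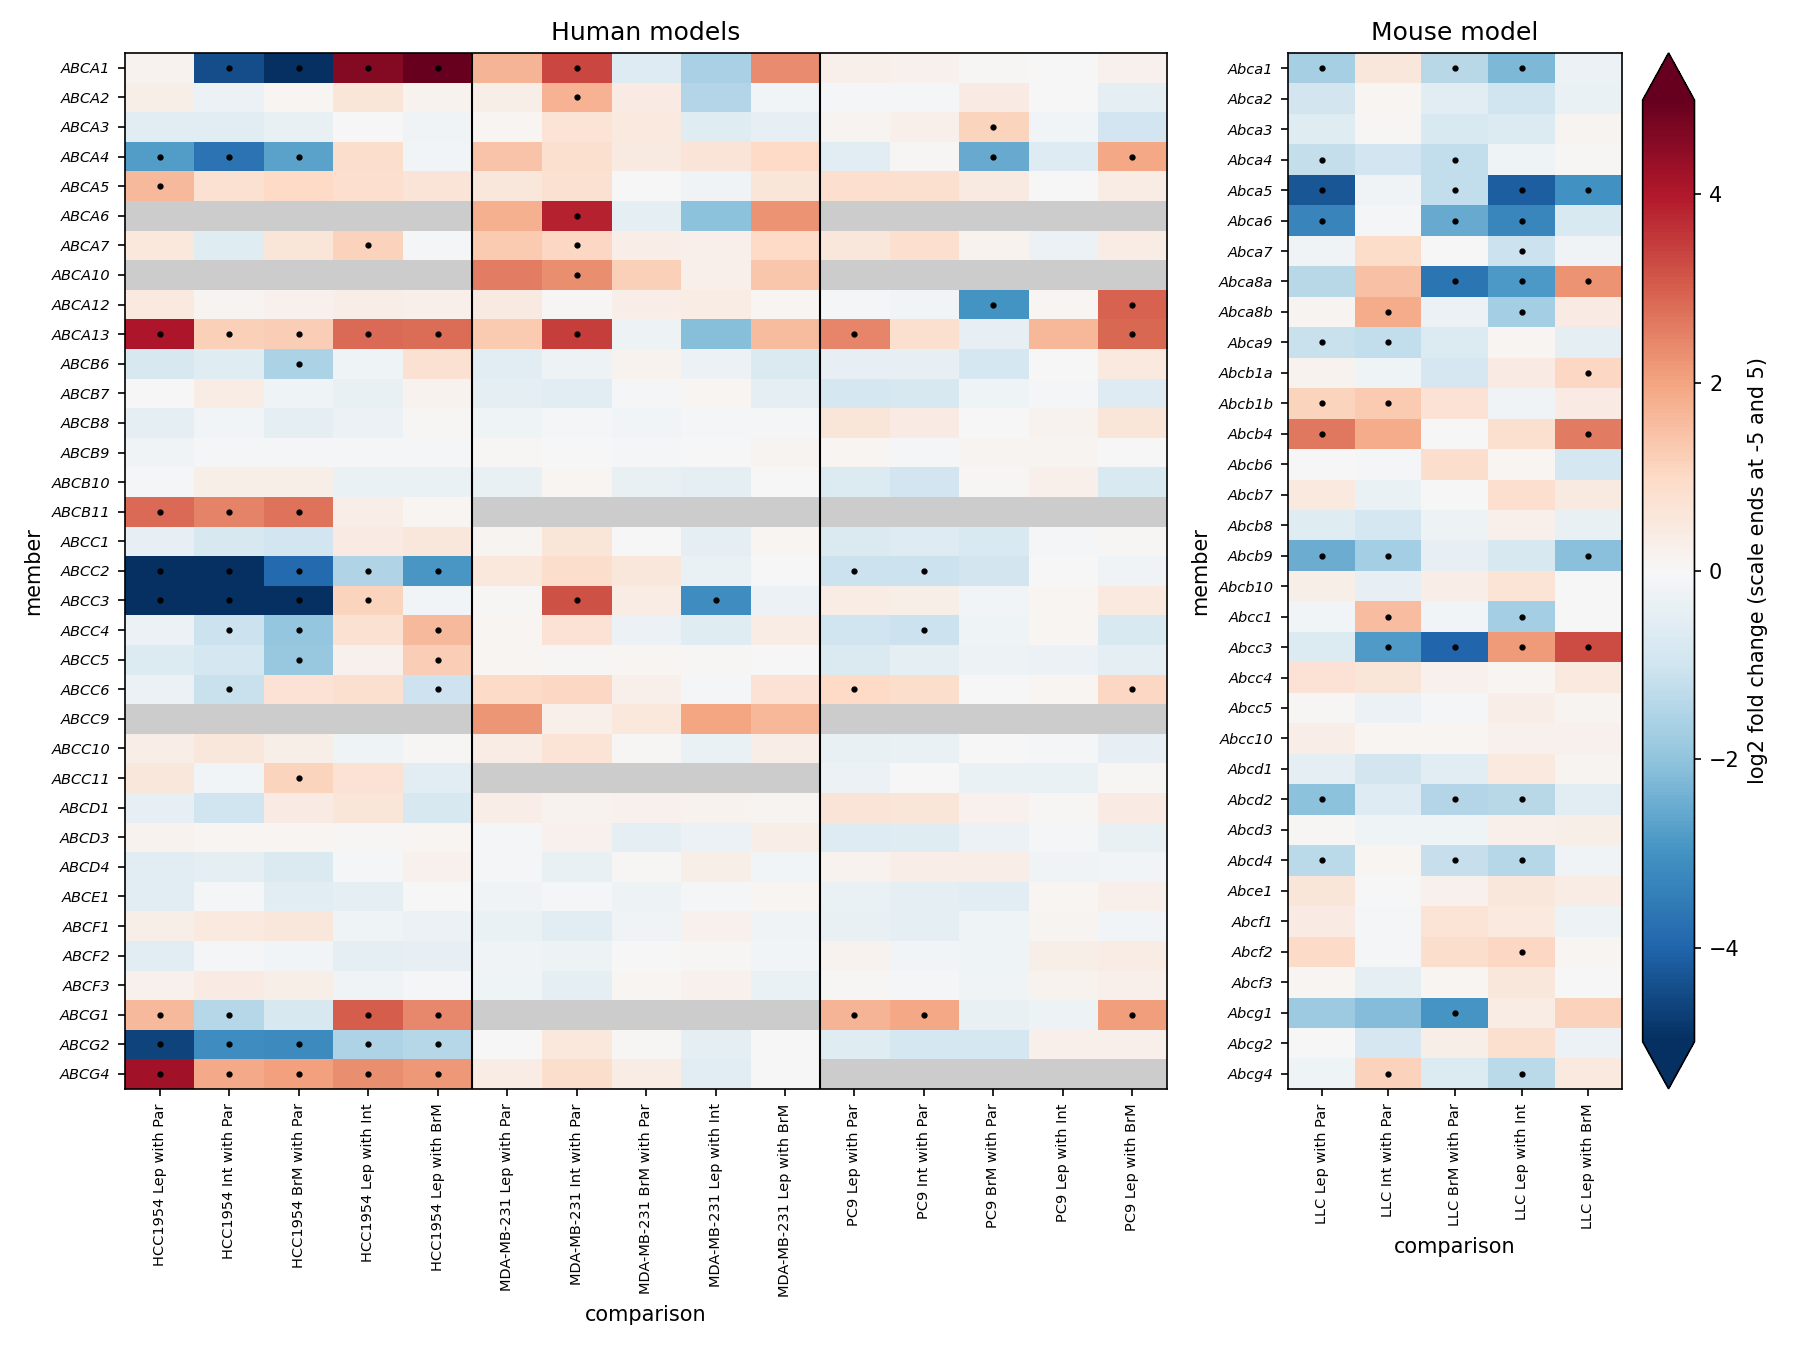
Log2 differences of every tested ABC member (vertical axis, by gene symbol, in a human and a mouse panel) in the 5 stage comparisons of each model (horizontal axis). Colour runs from −5 (lower in the first stage) to 5 (higher), with a black dot for a called member and grey for a member not tested in that model. Values past −5 or 5 share the end colour, among them in HCC1954 ABCC2, at −6.80 in Lep with Par, and ABCC3, at −7.22 in Int with Par. MDA-MB-231 has dots mainly in Int with Par, where 7 members were called higher.

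In HCC1954 the drug and conjugate pumps ABCC2, ABCC3 and ABCG2 fell steeply in all 3 derivatives. Each fell in Lep, Int and BrM by between 3.09 and 7.22 on the log2 scale, while ABCC1, ABCC4 and ABCC5 fell less or were not called. ABCC10 had 1256 to 1385 normalized counts in Par and 1596 to 2035 in the derivatives, and was not called. Of 8 efflux members tested, 0 rose and 3 fell in Lep against Par, 0 rose and 4 fell in Int, and 1 rose and 5 fell in BrM. Of all genes tested, 13% were called higher and 13.8% lower in Lep, 6.6% and 14.6% in Int, and 9.63% and 14% in BrM, so the efflux members' shares of 37.5%, 50% and 62.5% lower were above the background. For the counts of 0, limma, edgeR and DESeq2 gave the same 0, with 2 higher in Lep and 1 in Int at an unadjusted p under 0.05. Their median log2 difference was -0.535 in Lep, -0.969 in Int and -1.912 in BrM, beside -0.018, 0.015 and -0.022 for all 15561 genes tested. In bulk RNA, fewer cells that express a gene and less of its RNA per cell cannot be told apart.

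ABCC2, or MRP2, exports glutathione and glucuronide conjugates across apical membranes. Its normalized counts in Par 1 to 3 were 11730, 12400 and 12340, in Int 224.4 and 421.7, in Lep 94.98, 118.9 and 111.3, and in BrM 820.8 and 801.3. Every derivative library lay below every Par library, with Lep lowest and BrM highest of the derivatives. In limma's fit ABCC2 was lower than in Par by a log2 difference of -6.80 ± 0.16 in Lep (SE, adjusted p = 3.1e-13), -5.30 ± 0.18 in Int and -3.90 ± 0.18 in BrM. Lep was also below BrM, at -2.90 ± 0.18, and was called lower than Int (limma, adjusted p = 6.5e-06).

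ABCC3, or MRP3, exports conjugates and bile salts across the basolateral membrane. It had 15250, 15140 and 15490 normalized counts in Par, 100.6 and 102.8 in Int, 221.6, 224.9 and 218.8 in Lep, and 286.1 and 210.8 in BrM. The stages did not overlap except that Lep lay inside the range of BrM. Relative to Par, ABCC3 differed on the log2 scale by -6.10 ± 0.08 in Lep (limma, adjusted p = 4e-15), -7.22 ± 0.09 in Int and -5.95 ± 0.09 in BrM. Lep exceeded Int by 1.12 ± 0.09, a call that ended at 0.76 with quantile normalization and at 1.00 with a length and GC correction.

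ABCG2 encodes the breast cancer resistance protein, a drug and urate pump of epithelia and of brain capillaries. Its values were 1833, 2041 and 1845 in Par, 212.8 and 231.8 in Int, 85.6, 71.36 and 72.51 in Lep, and 216.2 and 196.2 in BrM. Par was highest and Lep lowest without overlap, and Int and BrM overlapped. The log2 differences from Par were -4.62 ± 0.09 in Lep, -3.09 ± 0.10 in Int and -3.20 ± 0.10 in BrM, and Lep was below Int by -1.53 ± 0.10 and below BrM by -1.42 ± 0.10.

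ABCC4 and ABCC5, which export cyclic nucleotides and nucleoside drugs, were lowest in BrM. ABCC4 had 2607, 2667 and 2787 normalized counts in Par, 1181 and 1376 in Int, 2305, 2139 and 2099 in Lep, and 712 and 702.2 in BrM. It fell by 1.92 ± 0.06 in BrM and by 1.07 ± 0.06 in Int on the log2 scale, the latter not called, at -0.96, without Int 1, and its difference in Lep was -0.30 ± 0.05. ABCC5 had 6575, 6714 and 6797 in Par, 3522 and 3839 in Int, 4163, 4273 and 4225 in Lep, and 1774 and 1812 in BrM. It fell in BrM by 1.90 ± 0.04, whereas its differences in Lep and Int, -0.67 ± 0.03 and -0.86 ± 0.04, were under the threshold of size. Lep exceeded BrM for ABCC4 by 1.62 ± 0.06 and for ABCC5 by 1.23 ± 0.04.

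ABCC1, or MRP1, a broad exporter of glutathione conjugates, was lower in the derivatives by less than these pumps. It had 7943, 7896 and 8163 normalized counts in Par, 4653 and 4465 in Int, 6092, 5998 and 6033 in Lep, and 4174 and 4044 in BrM. All derivative libraries were below Par, but the log2 differences of -0.41 ± 0.03, -0.81 ± 0.03 and -0.96 ± 0.03 in Lep, Int and BrM did not reach the size for a call. In BrM it was called with quantile normalization, at -1.05, and also, just at the size for a call, with a length and GC correction. The single efflux member that rose was the weakly expressed ABCC11, whose BrM values of 63.44 and 50.08 lay above the Par values of 20.84, 31.99 and 25.04, a log2 difference of 1.11 ± 0.24.

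The 250 bases before the RefSeq start sites of ABCC2, ABCA1 and ABCA5 are shown because these genes moved strongly in HCC1954 and have a single start site in the table of promoters, and because they differ in base composition. The sequences are from RefSeq on GRCh38.p14, whereas the authors' notes name hg19, and run 5′ to 3′ on the gene's strand. Capitals mark the letters GGGCGG (the GC box) and TATAAA, on either strand.
ABCC2: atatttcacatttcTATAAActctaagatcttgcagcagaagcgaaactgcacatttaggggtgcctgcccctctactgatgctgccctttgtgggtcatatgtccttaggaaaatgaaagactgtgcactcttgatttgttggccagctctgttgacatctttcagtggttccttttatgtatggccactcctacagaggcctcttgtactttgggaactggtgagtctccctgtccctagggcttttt
ABCA1: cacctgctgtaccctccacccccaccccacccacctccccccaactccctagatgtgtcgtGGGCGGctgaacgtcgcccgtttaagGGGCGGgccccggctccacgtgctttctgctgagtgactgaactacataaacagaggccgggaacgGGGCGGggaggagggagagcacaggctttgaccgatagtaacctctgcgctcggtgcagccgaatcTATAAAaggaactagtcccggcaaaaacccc
ABCA5: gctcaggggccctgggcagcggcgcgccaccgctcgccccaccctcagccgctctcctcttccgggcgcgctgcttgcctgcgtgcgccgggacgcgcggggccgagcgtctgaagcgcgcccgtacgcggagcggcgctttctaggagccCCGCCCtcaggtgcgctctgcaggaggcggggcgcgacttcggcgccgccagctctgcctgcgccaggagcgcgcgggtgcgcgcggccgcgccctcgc
The ABCC2 window, chr10:99782390-99782639 on the plus strand, had 45.6% GC and 1 CpG, and its TATAAA began 236 bases before the start. The ABCA1 window, chr9:104928156-104928405 on the minus strand, had 61.6% GC and 16 CpG, with GC boxes beginning 189, 163 and 97 bases and TATAAA 31 bases before the start. The ABCA5 window, chr17:69327134-69327383 on the minus strand, had 79.2% GC, 42 CpG and 1 GC box. The median over all 35116 promoters of the table was 58% GC and 11 CpG, and over the 53 promoters of the 35 matched members it was 61.6% and 16. GGGCGG was found in 42.6% of all these windows and 47.2% of the members', TATAAA in 10.7% and 11.3%, CCAAT in 32% and 20.8%, the antioxidant response core TGACNNNGC in 10.9% and 17%, the xenobiotic response core GCGTG in 32.2% and 39.6%, and the nuclear receptor half-site AGGTCA in 12.1% and 3.77%. Both strands were searched for each, and TGACNNNGC can overlap GCGTG. A match describes letters in this window and not a bound site.

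Lipid transporters of HCC1954 moved in both directions. Of 11 tested, 5 rose and 1 fell in Lep against Par, 3 rose and 3 fell in Int, and 3 rose and 2 fell in BrM. Their shares were 45.5% higher and 9.09% lower in Lep, 27.3% and 27.3% in Int, and 27.3% and 18.2% in BrM, beside 13% and 13.8%, 6.6% and 14.6%, and 9.63% and 14% of all genes. Against Int, 5 rose (45.5%, beside 11.7% of all genes) and 0 fell (beside 3.47%) in Lep, where limma, edgeR and DESeq2 each called 0 lower and 0 were lower at an unadjusted p under 0.05. Their median log2 difference was 0.538 in Lep against Par and 0.892 in Lep against Int, beside -0.018 and 0.009 for all genes tested. The counts of lipid members that rose include ABCG4, which had 0 to 6.294 normalized counts outside Lep. It passed the filter only through Lep, the stage in which it was high.

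ABCA1 had 3223, 2782 and 3077 normalized counts in Par, 120.6 and 160 in Int, 3486, 3383 and 3260 in Lep, and 44.02 and 59.47 in BrM. Lep lay just above Par, while Int and BrM were far below both. The log2 differences from Par were 0.16 ± 0.11 in Lep (limma, adjusted p = 0.19), -4.43 ± 0.12 in Int and -5.86 ± 0.12 in BrM, and Lep exceeded BrM by 6.02 ± 0.12 and Int by 4.59 ± 0.12. ABCG1, its partner in sterol export, had 230.4, 164.7 and 208.2 in Par, 73.21 and 75.01 in Int, 641.4, 646.6 and 550.1 in Lep, and 103.6 and 125.2 in BrM. Lep was the highest stage without overlap, at 1.61 ± 0.13 over Par, 3.03 ± 0.14 over Int and 2.41 ± 0.14 over BrM. The fall of ABCG1 in Int, -1.41 ± 0.14, was not called at -0.88 with quantile normalization.

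ABCA5, a lysosomal sterol transporter, rose in Lep from 312.6, 343.6 and 299.1 in Par to 997.9, 960.1 and 997.6. Int had 465.6 and 633.6 and BrM 634.4 and 633.3, so that all derivative libraries exceeded Par. The log2 difference was 1.63 ± 0.09 in Lep, called, and 0.77 ± 0.10 in Int and 0.99 ± 0.10 in BrM, not called. ABCA13, a very large member linked to lipid handling, had 24.13, 15.4 and 19.77 normalized counts in Par, 36.87 and 56.13 in Int, 368.2, 312.5 and 323.8 in Lep, and 41.43 and 53.21 in BrM. Its Lep libraries were far above all others, at a log2 difference of 4.03 ± 0.20 from Par. Every Int and BrM library also lay above Par, and ABCA13 counts among the lipid members that rose in those stages.

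ABCA4, which flips retinoid lipids in photoreceptors, fell in every derivative. It had 1339, 1306 and 1368 normalized counts in Par, 125.3 and 83.4 in Int, 201.7, 166.5 and 206.3 in Lep, and 195.5 and 219.1 in BrM. The log2 differences were -2.80 ± 0.13 in Lep, -3.70 ± 0.14 in Int and -2.69 ± 0.14 in BrM. ABCB11, the bile salt export pump of hepatocytes, rose in every derivative from 17.55, 28.44 and 27.67 in Par to 159.6 and 123.3 in Int, 172.4, 189.2 and 165 in Lep, and 146.3 and 185.7 in BrM. The 3 derivatives overlapped, at 2.82 ± 0.18, 2.50 ± 0.21 and 2.73 ± 0.21 above Par in Lep, Int and BrM. ABCA7, a phospholipid transporter linked to Alzheimer's disease risk, had 1422, 1293 and 1378 in Par, 847.4 and 948.4 in Int, 1854, 2101 and 1994 in Lep, and 1983 and 2166 in BrM. It was called only in Lep against Int, at 1.14 ± 0.07, which became 0.95 with a length and GC correction. ABCG4 was at 25.95 to 27.5 in Lep and at 0 to 6.294 in all other libraries.

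**Figure D2:**
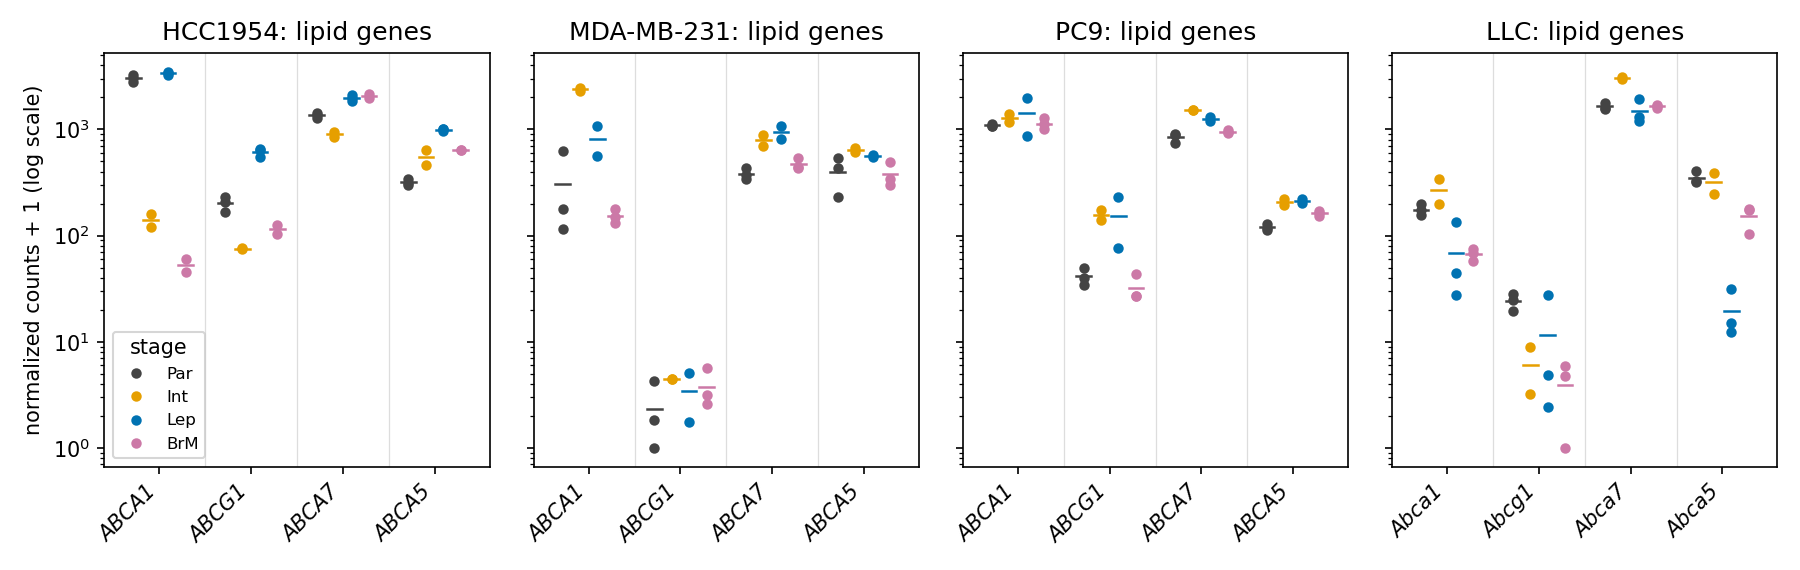
Normalized counts plus 1 (vertical axis, log scale) of ABCA1, ABCG1, ABCA7 and ABCA5 in each library by stage and model, with a point per library and a bar at the stage mean. In HCC1954, ABCA1 sits between 2782 and 3486 in Par and Lep and at 160 or less in Int and BrM, and in LLC Abca5 drops to between 11.24 and 30.67 in Lep.

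Members with mitochondrial, peroxisomal and translational roles were rarely called in HCC1954. Of 5 mitochondrial and lysosomal B members only ABCB6, a porphyrin transporter, was called in a comparison with Par: it fell in BrM from 2517, 2709 and 2583 in Par to 882.9 and 862.9, a log2 difference of -1.57 ± 0.04. Its Int values of 1710 and 1701 and Lep values of 1458, 1534 and 1449 lay between these. ABCD3, the peroxisomal importer of branched-chain acyl-CoA, had 3993 to 4260 normalized counts in Par and 4320 to 4725 in the derivatives, at 0.16 ± 0.03 in Lep. ABCE1, the ribosome recycling factor, had 5026, 5187 and 5118 in Par and 3675, 3326 and 3495 in Lep, at -0.55 ± 0.04. Limma called 0 of 4 translation factors in each of the 5 comparisons, as did edgeR and DESeq2, although 4 of 4 had an unadjusted p under 0.05 in Lep against Par, 2 higher and 2 lower. ABCC6, an exporter linked to soft tissue calcification whose reads can be shared with pseudogene copies, had 59.23, 78.21 and 71.16 in Par, 33.71 and 29.9 in Int, 69.19, 50.82 and 50 in Lep, and 112.6 and 118.9 in BrM. BrM was highest and Int lowest, while Lep overlapped Par. It was called lower in Int than in Par, at -1.10 ± 0.19 (not with quantile normalization or a length and GC correction), and lower in Lep than in BrM, at -1.03 ± 0.19. The latter call ended with a pseudocount of 5 and without Lep 2, Lep 3 or BrM 2, at -0.95 to -0.99.

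Over all 32 tested members of HCC1954, 5 were called higher (15.6%) and 4 lower (12.5%) in Lep against Par, beside 13% and 13.8% of all genes, so the family's share was near the background. In Int against Par 3 were higher (9.38%) and 8 lower (25%), beside 6.6% and 14.6% of all genes. In BrM against Par 4 were higher (12.5%) and 8 lower (25%), beside 9.63% and 14%. In Lep against Int 6 were higher (18.8%) and 2 lower (6.25%), beside 11.7% and 3.47%, and in Lep against BrM 6 were higher (18.8%) and 3 lower (9.38%), beside 10.5% and 6.54%. The members called higher in these comparisons include ABCG4, which passed the filter only through Lep. With quantile normalization the calls over all genes shifted from 1027 higher and 2279 lower to 1968 and 1649 in Int against Par, from 1817 and 540 to 1315 and 954 in Lep against Int, and from 1498 and 2171 to 2111 and 1739 in BrM against Par. The median of all genes then moved from 0.015 to 0.124 in Int against Par.

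Of 25 tested genes that regulate or accompany these transporters, 3 rose and 2 fell in Lep against Par, 2 rose and 4 fell in Int, and 3 rose and 5 fell in BrM. These were 12% higher and 8% lower, 8% and 16%, and 12% and 20%, near the 13% and 13.8%, 6.6% and 14.6%, and 9.63% and 14% of all genes. GCLM, a subunit of the ligase for the first step of glutathione synthesis, fell from 15190 to 15980 in Par to 2833 to 3065 in Lep, 3482 to 3580 in Int and 3215 to 3274 in BrM. Its partner subunit GCLC was higher than in Par in Int and BrM, by 0.52 ± 0.05 and 0.97 ± 0.05, under the size for a call. GCLC had 8504 to 8966 in Par, 7089 to 7581 in Lep, 11630 and 13390 in Int, and 16890 and 17100 in BrM. NR1H3, the liver X receptor alpha, fell from 573.5 to 583.7 in Par to 115.9 to 169.6 over the derivatives. APOE, the lipoprotein that accepts exported cholesterol, rose in Lep from 18.65, 27.25 and 32.94 in Par to 973.3, 1024 and 922.6, a log2 difference of 5.19 ± 0.17, and had 126.9 and 112.7 in BrM. RDX, a scaffold that anchors ABCC2 at the apical membrane, fell by 1.82 ± 0.10 in Int and 1.39 ± 0.10 in BrM and was at 2912 to 3106 in Lep against 4696 to 4927 in Par. Markers of other cell types and of epithelium also moved between these stages. The summed macrophage list of 5 was 278 to 298.4 in Par, 21.07 to 25.7 in Int, 138.8 to 154.8 in Lep and 31.07 to 62.6 in BrM, with C1QA at 0 in all libraries. The sum of 4 endothelial markers was 869.8 to 963.2 in Par, 764.8 to 795.8 in Int, 619.5 to 678.8 in Lep and 4795 to 4825 in BrM, where PECAM1 was 2763 and 2953. The epithelial sum was 192300 to 194200 in Par, 98220 to 107500 in Int, 54660 to 56750 in Lep and 98140 to 98950 in BrM. Host cells of the mice would give mouse reads, and the part of these markers in the results was not tested.

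**Figure D3:**
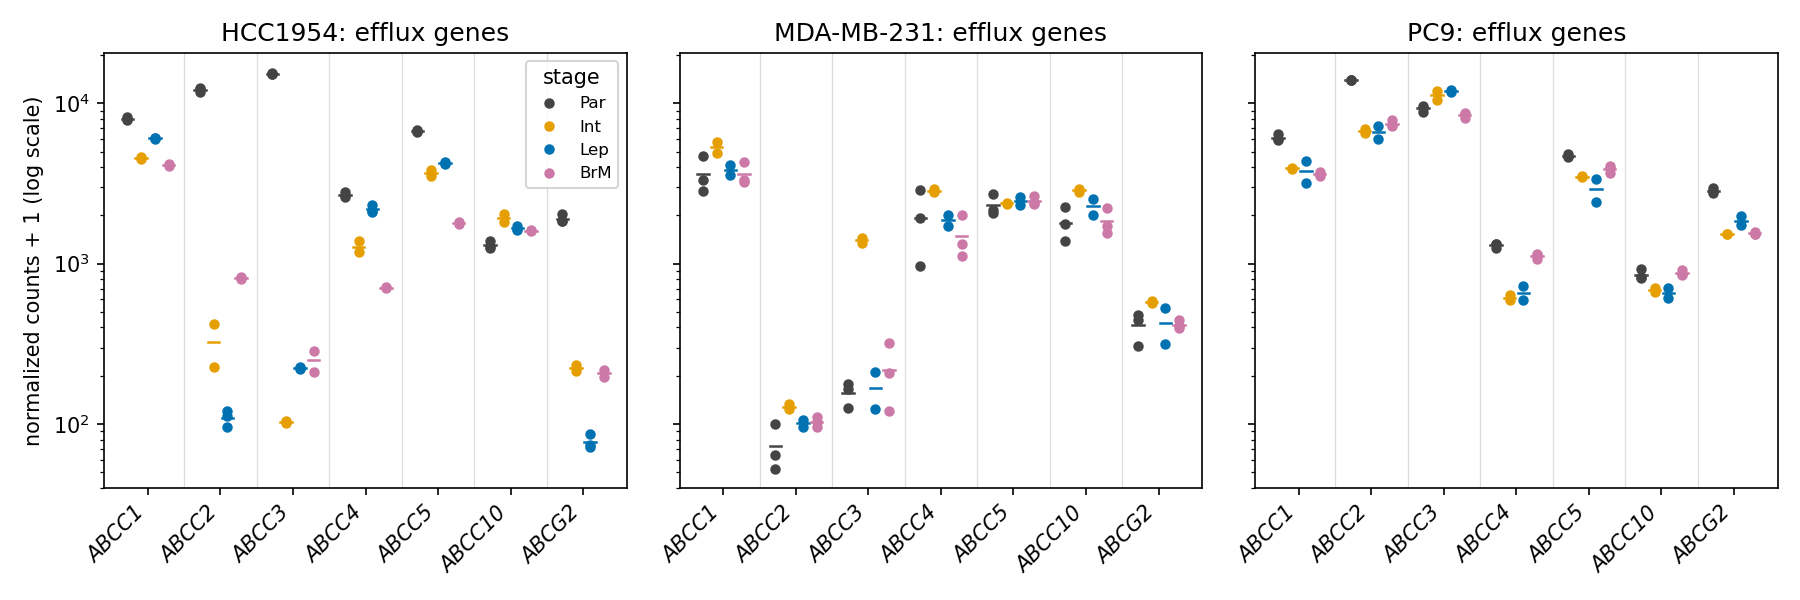
Normalized counts plus 1 (vertical axis, log scale) of 7 drug and conjugate efflux genes in each library of the 3 human models by stage, with a point per library and a bar at the stage mean. ABCC2 and ABCC3 are at 11730 or more in HCC1954 Par and at 820.8 or less in its derivatives, ABCC3 of MDA-MB-231 stands at 1342 and 1447 in Int and at 319 or less elsewhere, and ABCC2 of PC9 is at 13970 to 14030 in Par and 5948 to 7816 in the derivatives.

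In MDA-MB-231 the only stage with called members against Par was Int, where 7 of 32 tested members rose (21.9%) and 0 fell, beside 4.33% of all genes higher and 2.61% lower. Of the 7, 6 were lipid transporters and the other was ABCC3. The 6 include ABCA6, which passed the filter only through Int, the stage in which it was high. edgeR and DESeq2 also called 7 higher and 0 lower, and 2 members were lower at an unadjusted p under 0.05. The members' median log2 difference was 0.551, beside 0.025 for all genes, and was 1.039 for the 11 lipid members and 0.699 for the 7 efflux members. With either Int library left out, which leaves Int with 1 library assumed to vary like the others, 0 members were called, and the count was 2 without Par 2, 4 without Par 3 and 9 without Par 1.

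ABCC3 had 125, 176.7 and 165 normalized counts in MDA-MB-231 Par, 1342 and 1447 in Int, 211 and 123.3 in Lep, and 120.1, 319 and 208 in BrM. Int stood alone, and the other 3 stages overlapped. The log2 difference of Int from Par was 3.17 ± 0.40 (limma, adjusted p = 0.0065), with adjusted p of 0.086 and 0.13 when Int 1 or Int 2 was left out. Lep was below Int by -3.10 ± 0.43 (limma, adjusted p = 0.041), the single member among 20 genes called lower there (0.132%), and lost its call in a fit to those stages alone (adjusted p = 0.15).

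ABCA1 had 631.8, 178.4 and 114.8 in Par, 2313 and 2451 in Int, 1066 and 556.6 in Lep, and 175.9, 129.4 and 148.1 in BrM. Int was highest, Lep overlapped only Par 1, and the rest were low. The difference of Int from Par was 3.33 ± 0.60 (limma, adjusted p = 0.019), and that of Lep from Par was 1.71 ± 0.60 (adjusted p = 0.37). Without Par 1, the library that stood apart, Lep exceeded Par by 2.42 and was called (limma, adjusted p = 0.029).

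ABCA2, an intracellular sterol and sphingolipid transporter, had 888.8, 623.1 and 739.1 in Par, 2561 and 2449 in Int, 821.4 and 1004 in Lep, and 1315, 752 and 967.4 in BrM. Int exceeded every other library, by 1.75 ± 0.25 over Par (limma, adjusted p = 0.0091). ABCA7 had 336.6, 370.7 and 436.6 in Par, 690.2 and 881.6 in Int, 810.9 and 1086 in Lep, and 435.3, 542.4 and 444.3 in BrM. Int and Lep overlapped each other and lay above Par and BrM, at 1.04 ± 0.22 in Int (adjusted p = 0.026), which was 0.92 with quantile normalization and 0.81 with length and GC fitted out, neither called, and 1.31 ± 0.22 in Lep (adjusted p = 0.082). ABCA13 had 8.086 to 20.15 in Par and 151.8 and 173.4 in Int, 3.45 ± 0.73 apart (limma, adjusted p = 0.027). The remaining called members, ABCA10 and ABCA6, were weakly expressed. ABCA10 had 11.32 to 24.18 in Par, 73.49 and 109.5 in Int, and 142.9 and 79.19 in Lep. Its Lep and Int libraries overlapped, although it was not called in Lep against Par. ABCA6 had 0 to 2.466 in Par, 12.25 and 54.51 in Int, and at most 9.74 in Lep and BrM.

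Length moved with these differences in MDA-MB-231. Over all tested genes, Spearman's rho between the longest coding transcript and a library's deviation from the gene's mean was 0.46 to 0.48 in Int, 0 to 0.25 in Lep, -0.50 to -0.09 in BrM and -0.48 to 0.50 in Par. With length and GC fitted out, 6 of the 7 members stayed called in Int against Par, with ABCA1 at 2.80, ABCC3 at 2.91, ABCA2 at 1.46 and ABCA13 at 2.81. PECAM1, an endothelial marker, was 387.1 and 922.3 in Int and 29.59 to 37.28 in Par. KDR and CLDN5 of the same list overlapped, with KDR at 531.5 and 631.4 in Int and 439.9 to 810.2 in Par. The sum of the 4 endothelial markers was 941.8 to 1581 in Int and 478.7 to 852.5 in Par. The summed macrophage list was 645.6 to 1095 in Int and 184.4 to 281.4 in Par, with C1QA at 0.4956 or less in every library. Their part in the result was not tested.

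The remaining MDA-MB-231 efflux genes overlapped between stages or differed below the call. ABCC1 had 4700, 3315 and 2824 in Par, 5759 and 4879 in Int, 4101 and 3596 in Lep, and 4332, 3207 and 3302 in BrM. ABCC2 was weak here, with 99.76, 63.3 and 51.75 in Par, 122.9 and 131.8 in Int, 94.97 and 105.3 in Lep, and 94.53 to 109.4 in BrM. ABCC4 had 2867, 1922 and 968.7 in Par and 2908 and 2790 in Int, and without Par 1 the difference of Int was 1.06 for ABCC4 and 1.14 for ABCC2, both then called. ABCC5 lay between 2057 and 2699 in all 10 libraries and ABCG2 between 305.7 and 584.4. The peroxisomal ABCD3 (3010 to 5437) and the recycling factor ABCE1 (10080 to 19950) also overlapped between stages, with Par 1 highest for both.

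In Lep against Par of MDA-MB-231 limma and edgeR called 0 members, beside 0.0199% of all genes higher and 0.0463% lower. DESeq2 called 3 higher, and at an unadjusted p under 0.05 there were 6 higher and 0 lower. In BrM against Par limma, edgeR and DESeq2 called 0 members (2 higher and 0 lower before adjustment, at p under 0.05), beside 0.344% of all genes higher and 0.106% lower. In Lep against BrM limma and edgeR called 0 and DESeq2 called 2 higher (5 higher and 1 lower unadjusted), beside 0.344% and 0.483%. In Lep against Int the background was 0.0265% higher, with 0 members called higher by limma and edgeR, 1 by DESeq2 and 1 at an unadjusted p under 0.05. Of 26 genes that regulate or accompany the family, limma and edgeR called 0 in the 5 comparisons. At an unadjusted p under 0.05, 0 to 6 of these were higher and 1 to 6 lower in a comparison, and DESeq2 called 1 higher and 1 lower in Int against Par and 1 higher in Lep against BrM.

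In PC9 the conjugate pumps stayed strongly expressed at all stages, and the changes were smaller than in HCC1954. ABCC2 had 14030, 13970 and 13980 normalized counts in Par, 6924 and 6516 in Int, 7239 and 5948 in Lep, and 7816, 7351 and 7178 in BrM. All derivatives were below Par, and Lep overlapped Int and BrM. The log2 differences were -1.09 ± 0.08 in Lep (limma, adjusted p = 1.4e-07), -1.06 ± 0.08 in Int and -0.91 ± 0.07 in BrM. The call in Lep ended at -0.95 without Lep 2, and with length and GC fitted out the differences were -0.66 in Lep and -0.64 in Int, neither called.

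ABCC4 had 1326, 1334 and 1256 in Par, 589.3 and 635.9 in Int, 594.1 and 720.5 in Lep, and 1132, 1155 and 1064 in BrM. Int and Lep overlapped each other and lay below BrM, which lay below Par. It fell in Int by 1.09 ± 0.09 on the log2 scale, not called at -0.65 with length and GC fitted out, and in Lep the difference was -0.99 ± 0.09, just under the size for a call, and -1.13 without Lep 2. ABCC3 had 8873, 9623 and 9382 in Par, 10520 and 11980 in Int, 11720 and 12060 in Lep, and 8513, 8726 and 8135 in BrM, a difference of 0.36 ± 0.07 in Lep. ABCG2 had 2835, 2757 and 2959 in Par, 1521 and 1541 in Int, 1969 and 1734 in Lep, and 1538, 1526 and 1567 in BrM. Its differences of -0.62 ± 0.07, -0.90 ± 0.07 and -0.88 ± 0.06 in Lep, Int and BrM separated the stages from Par but were not called.

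ABCC1 and ABCC5 of PC9 were likewise below Par without a call. ABCC1 had 5868, 6470 and 5973 in Par, 3949 and 3903 in Int, 4374 and 3165 in Lep, and 3601, 3743 and 3522 in BrM, with differences of -0.71 ± 0.10, -0.64 ± 0.10 and -0.75 ± 0.09 in Lep, Int and BrM. ABCC5 had 4670, 4628 and 4821 in Par, 3461 and 3495 in Int, 3386 and 2416 in Lep, and 3972, 4080 and 3675 in BrM, with a difference of -0.72 ± 0.11 in Lep. Of 8 efflux members, 0 rose and 1 fell (12.5%) in Lep, and 0 rose and 2 fell (25%) in Int, beside 6.65% of all genes higher and 8.49% lower in Lep and 6.24% and 7.71% in Int. In both, edgeR and DESeq2 called 0 higher too, and 1 was higher at an unadjusted p under 0.05. In BrM limma, edgeR and DESeq2 called 0, although at an unadjusted p under 0.05 there were 6 lower and 0 higher, beside 4.62% of all genes called higher and 3.1% lower.

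Lipid members of PC9 differed mainly between BrM and the other stages. ABCA12, the glucosylceramide transporter of the skin barrier, had 445.2, 491 and 430.8 in Par, 402.5 and 417.9 in Int, 311 and 616.8 in Lep, and 65.9, 67 and 40.46 in BrM. BrM was below all other libraries, at -2.99 ± 0.23 against Par, and Lep exceeded BrM by 2.94 ± 0.25. ABCA4 had 218.3, 276 and 251.2 in Par, 237.1 and 282.7 in Int, 206.8 and 132.1 in Lep, and 41.19, 43.35 and 43.35 in BrM, where it fell by 2.51 ± 0.16. ABCA3, the surfactant lipid transporter of lung alveolar cells, had 318.9, 437.3 and 403.8 in Par and rose to 840.2, 836.8 and 812.2 in BrM, at 1.11 ± 0.12. That call ended at 0.91 with length and GC fitted out and at 0.98 without Par 1. VIM, a mesenchymal marker, moved with the same stages, from 39.17 to 64.73 in Par and 23.4 to 54.28 in Int and Lep to 1827 to 2189 in BrM. PECAM1 was 90.49 to 94.05 in Par, 354.7 to 549.1 in Int and Lep and 0.9634 to 2.354 in BrM. CDH5, of the same endothelial list, was 170.5 to 213.7 in Par and 261.2 to 280.4 in BrM. The sum of the 4 endothelial markers was 264.9 to 311.5 in Par and 263.6 to 283.2 in BrM. The sum of 5 macrophage markers was 131.9 to 164.8 in Par and 424.8 to 476.8 in BrM, with C1QA at 0 in all libraries. Of these, CSF1R was 90.38 to 100.6 in Par and 403.6 to 445.3 in BrM, while CD14 was 35.42 to 58.07 and 20.01 to 27.94. Their part in these differences was not tested.

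ABCG1 of PC9 had 33.11, 39.09 and 48.62 in Par, 139.6 and 172.1 in Int, 75.55 and 228.2 in Lep, and 25.89, 42.04 and 26.01 in BrM. Int and Lep lay above Par and BrM, but the Lep libraries were far apart. It rose in Int by 1.94 ± 0.37 and in Lep by 1.70 ± 0.37 (limma, adjusted p = 0.0014), and the difference in Lep was 0.91, not called, without Lep 2. ABCA1 had 1067, 1127 and 1071 in Par, 1174 and 1396 in Int, 861.8 and 1972 in Lep, and 1272, 1117 and 1002 in BrM, and its Lep difference was 0.26 ± 0.24. Lep 2 was the highest of all PC9 libraries for ABCA1, ABCA12 and ABCG1.

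Over all 30 tested members of PC9, 3 were called higher (10%) and 1 lower (3.33%) in Lep against Par, beside 6.65% and 8.49% of all genes. In Int against Par 1 was higher and 2 lower, beside 6.24% and 7.71%, and in BrM against Par 1 was higher and 2 lower, beside 4.62% and 3.1%. In Lep against BrM 5 were higher (16.7%) and 0 lower, beside 7.83% and 10.8%, with 10 lower at an unadjusted p under 0.05 but 0 called lower by limma, edgeR and DESeq2. The members called higher in Lep against Par and against BrM include ABCA13, which passed the filter only through Lep, at 22 and 11.7. In Lep against Int limma, edgeR and DESeq2 called 0, while at an unadjusted p under 0.05 there were 4 in each direction, beside 0.228% and 0.38%. The split changed with length and GC fitted out, to 4 higher and 0 lower in Lep against Par, 4 and 0 in Int against Par, and 0 and 3 in BrM against Par. The lipid transporter ABCA5 was then called at 1.39 in Lep and 1.27 in Int, and ABCB6 at -1.03 in BrM.

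Length again moved with the stages of PC9, with rho between 0.28 and 0.42 in BrM and 0.35 and 0.38 in Par, and between -0.50 and -0.39 in Int and Lep. Of the other members, ABCD3 had 2232, 2092 and 2142 in Par and 1344 to 1447 in Int and Lep, at -0.66 ± 0.07 in Lep, and ABCE1 had 4194, 3923 and 3991 in Par and 2556 to 3461 in the derivatives. Neither was called. GCLM fell in each derivative, from 8269 to 8509 in Par to 3634 to 4240, and MVP, the major vault protein, rose in Lep by 1.17 ± 0.08 and in Int by 1.36 ± 0.08. Of 23 regulating or accompanying genes, 1 was higher (4.35%) and 2 lower (8.7%) in Lep against Par, and 2 higher and 2 lower (8.7% each) in Int, near the 6.65% and 8.49% of all genes in Lep and 6.24% and 7.71% in Int. In BrM, where 4.62% of all genes were higher and 3.1% lower, limma called 0 higher and 2 lower (8.7%), as did edgeR and DESeq2, with 7 higher at an unadjusted p under 0.05.

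**Figure D4:**
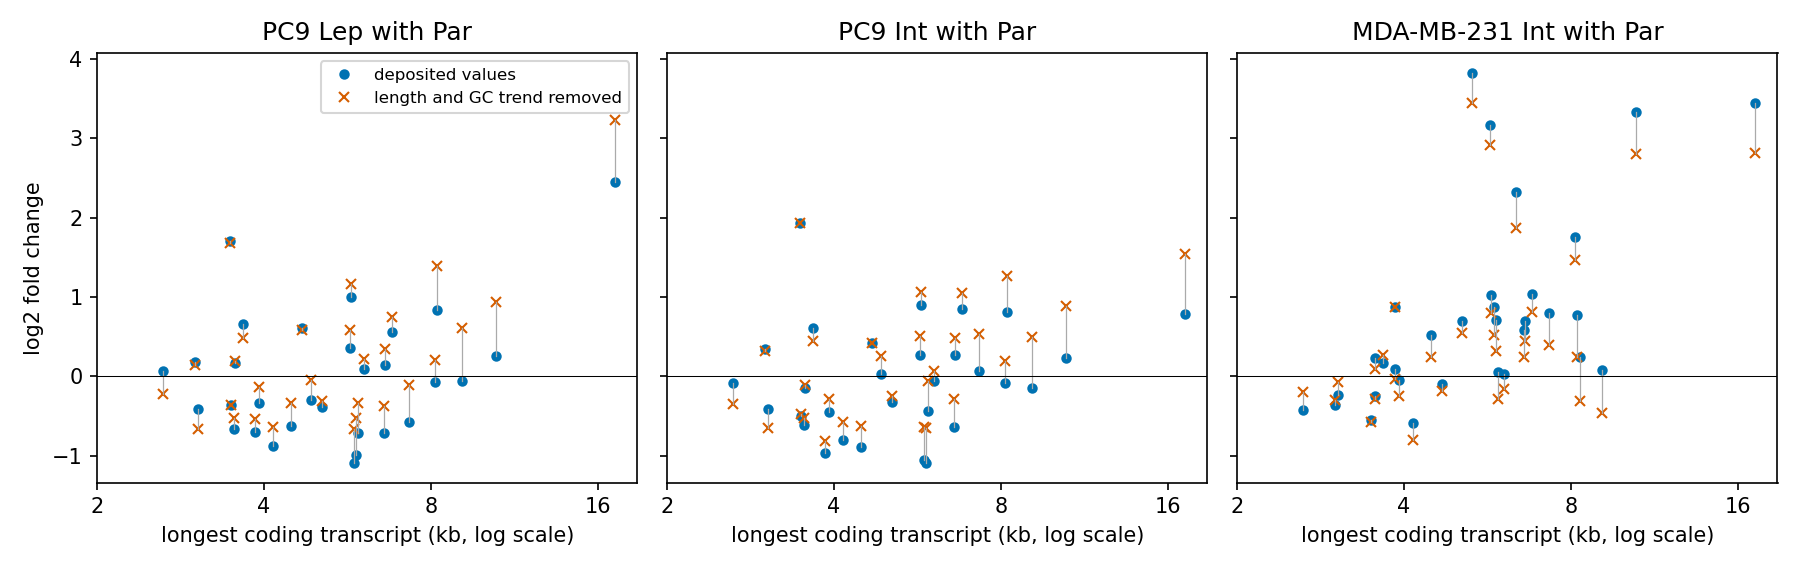
Log2 difference (vertical axis) of each tested ABC member against the length of its longest coding transcript in kilobases (horizontal axis), for Lep with Par and Int with Par of PC9 and Int with Par of MDA-MB-231, with dots for the deposited values and crosses after length and GC were fitted out. In PC9 the cross of ABCC2 lies at -0.66 in Lep and -0.64 in Int, above its dots at -1.09 and -1.06, and in MDA-MB-231 the cross of ABCA1 lies at 2.80, below its dot at 3.33.

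In the mouse line LLC the members called in Lep and BrM against Par were mainly lipid and peroxisomal transporters, and most of them fell. In Int against Par calls went in both directions and included efflux genes, with Abcc1 and Abcb1b higher and Abcc3 lower. Of 13 lipid members, 1 rose and 5 fell in Lep against Par, 0 rose and 6 fell in BrM, and 2 rose and 1 fell in Int. The shares were 7.69% higher and 38.5% lower in Lep, 46.2% lower in BrM, and 15.4% higher and 7.69% lower in Int, beside 8% and 12.3%, 8.14% and 15.1%, and 6.4% and 5.08% of all genes. Of 4 peroxisomal and cobalamin members, 0 rose and 2 fell (50%) in both Lep and BrM. The median difference of the lipid members was -1.111 in Lep and -0.75 in BrM, beside 0.003 for all 13494 genes in Lep. In both comparisons limma, edgeR and DESeq2 called 0 peroxisomal members higher, with 0 higher at an unadjusted p under 0.05, and in BrM the same held for the lipid members.

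Abca5 had 321.5, 325.3 and 401.9 normalized counts in Par, 388.1 and 245.3 in Int, 30.67, 14.06 and 11.24 in Lep, and 178.8, 102.6 and 172.9 in BrM. Par and Int overlapped, BrM was lower and Lep lowest. The log2 difference from Par was -4.28 ± 0.35 in Lep (limma, adjusted p = 2.8e-06) and -1.24 ± 0.35 in BrM, the latter not called at -0.93 with quantile normalization and -0.98 without BrM 2. Abca1 had 175, 154 and 196.2 in Par, 337.6 and 196.9 in Int, 26.84, 132.9 and 43.57 in Lep, and 67.22, 56.77 and 74.08 in BrM. Lep and BrM lay below Par, and Lep 2 stood above the other Lep libraries. Abca1 differed from Par by -1.67 ± 0.45 in Lep (limma, adjusted p = 0.0089) and -1.39 ± 0.45 in BrM (adjusted p = 0.02), the BrM call ending at -0.98 with quantile normalization and also, with adjusted p between 0.051 and 0.064, without Par 1, Par 3 or BrM 2. Lep was below Int by -2.24 ± 0.50, a call lost without Int 1, at -1.85 (limma, adjusted p = 0.055).

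Abca9, a neighbour of Abca5 in the same gene cluster, had 157.9, 132.1 and 105.8 in Par, 57 and 53.46 in Int, 74.13, 43.46 and 66.06 in Lep, and 93.86, 52.4 and 110.3 in BrM. It fell in Lep by 1.11 ± 0.31 on the log2 scale, not called at -0.89 with quantile normalization or without Lep 2, nor without Par 1 (adjusted p = 0.051). In Int it fell by 1.22 ± 0.35, with no call when Par 1, Par 2, Int 1 or Int 2 was left out (adjusted p between 0.067 and 0.12). Abca8b of the same cluster had 59.75, 59.75 and 91.55 in Par, 426.4 and 146.3 in Int, 43.45, 71.57 and 137.8 in Lep, and 72.3, 39.3 and 62.56 in BrM. It rose in Int by 1.84 ± 0.51 (limma, adjusted p = 0.02), where Int 1 was well above Int 2, with 1.08 and no call without Int 1 (adjusted p = 0.23). Abca6 and Abca8a were weak outside Int 1, with Abca6 at 37.84 to 52.64 in Par and 2.108 to 7.669 in Lep, and Abca8a at 19.2 to 23.78 in Par and 4.217 to 11.5 in Lep. Abca7 was called only in Lep against Int, at -1.08 ± 0.17, with 1305 to 1917 in Lep and 3005 and 3138 in Int. Abcg1 was at 18.49 to 27.22 in Par and at 1.406 to 26.84 in Lep, with Lep 2 the high library.

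Of the mouse P-glycoproteins, Abcb1b rose in Int and Lep and Abcb1a was not called against Par. Abcb1b had 636.6, 667.9 and 715.7 in Par, 1628 and 1735 in Int, 1117, 2422 and 1177 in Lep, and 1161, 943.2 and 1207 in BrM. Every derivative library was above Par. It rose in Int by 1.32 ± 0.27 and in Lep by 1.13 ± 0.24 (limma, adjusted p = 0.0023), but in Lep the difference was 0.77, not called, without Lep 2. Abcb1a had 130.2, 108.9 and 134.3 in Par, 106.3 and 105.2 in Int, 122.7, 191.7 and 120.2 in Lep, and 92.59, 56.77 and 62.56 in BrM. Lep overlapped Par, and Abcb1a exceeded BrM in Lep by 1.02 ± 0.25, which was 0.81 without Lep 2 and 0.90 with quantile normalization. These genes are related copies, and reads that match both may have been split or dropped in the counting.

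Abcc1 rose in Int alone. It had 6537, 7910 and 8383 in Par, 25060 and 19610 in Int, 7165, 6835 and 6464 in Lep, and 7706, 5535 and 7448 in BrM, with a log2 difference of 1.55 ± 0.17 in Int and -1.70 ± 0.17 between Lep and Int. Abcc3 had 118.1, 120.8 and 109.4 in Par, 15.35 and 15.19 in Int, 40.9, 115 and 75.9 in Lep, and 5.073, 15.28 and 3.293 in BrM. It fell in Int by 2.85 ± 0.53 and in BrM by 3.96 ± 0.47, and Lep, which overlapped Par, exceeded BrM by 3.26 ± 0.47. Abcc4 had 2299, 2630 and 2742 in Par, 4211 and 3669 in Int, 4040, 5376 and 3344 in Lep, and 3416, 2356 and 3207 in BrM, with 0.71 ± 0.18 in Lep. Abcc5 lay between 1900 and 3309 in all libraries. Abcg2 had 315.1, 320 and 317.4 in Par, 192.9 and 164.3 in Int, 350.2, 291.4 and 300.1 in Lep, and 364, 425.7 and 373.7 in BrM, and no comparison of it was called, although with quantile normalization Lep exceeded Int by 1.09 and was called (limma, adjusted p = 0.00034).

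Among the other roles Abcb9, a lysosomal peptide transporter, fell in Lep and Int. It had 389.1, 321.3 and 306.7 in Par, 90.99 and 118.7 in Int, 47.29, 71.57 and 60.44 in Lep, and 277.8, 211.8 and 284.8 in BrM, at -2.50 ± 0.22 in Lep and -1.69 ± 0.25 in Int. Abcd2, a peroxisomal importer of very long-chain acyl-CoA, had 404, 348.5 and 275.8 in Par, 291 and 156.4 in Int, 101, 53.68 and 99.8 in Lep, and 123, 122.3 and 120.2 in BrM. It fell by 2.04 ± 0.29 in Lep and 1.47 ± 0.29 in BrM. Abcd4, the lysosomal cobalamin exporter, had 2957, 2952 and 3145 in Par, 2977 and 3430 in Int, 1500, 1026 and 1096 in Lep, and 1278, 1535 and 1263 in BrM, falling by 1.34 ± 0.15 in Lep and 1.16 ± 0.15 in BrM. Abcf2, which acts in translation, had 4209, 4688 and 4879 in Par, 3626 and 5101 in Int, 9326, 10020 and 7571 in Lep, and 8235, 8821 and 8090 in BrM. It was 0.96 ± 0.14 above Par in Lep, under the size for a call, and 1.05 ± 0.16 above Int, a call that ended at 0.81 without Int 1 and 0.97 without Lep 2. Abce1 had 11970, 13730 and 14860 in Par, whereas its Lep libraries had 19840, 21810 and 19310 (0.59 ± 0.14). Abcd3 lay between 1899 and 2844 in all libraries. Abcg4 rose in Int from 46.95, 57.76 and 67.77 in Par to 98.11 and 167.7, at 1.16 ± 0.39 (limma, adjusted p = 0.047), and was not called with any single Par or Int library left out.

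Over all 34 tested members of LLC, 2 were called higher (5.88%) and 8 lower (23.5%) in Lep against Par, beside 8% and 12.3% of all genes. In BrM against Par 0 were higher and 9 lower (26.5%), beside 8.14% and 15.1%. For this comparison edgeR and DESeq2 also called 0 higher and 9 lower, and 5 were higher at an unadjusted p under 0.05. In Lep against Int 2 were higher (5.88%) and 10 lower (29.4%), beside 8.47% and 14%. In Int against Par 4 were higher (11.8%) and 3 lower (8.82%), beside 6.4% and 5.08%, and in Lep against BrM 4 were higher (11.8%) and 2 lower (5.88%), beside 11.1% and 6.85%, so that the last share was near the background. With quantile normalization the split in Lep against BrM was 2 higher and 2 lower. Quantile normalization also moved the calls over all genes from 1099 higher and 2037 lower to 1579 and 1546 in BrM against Par and from 1143 and 1893 to 1578 and 1676 in Lep against Int.

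Lep 2 of LLC also had the most Pdgfrb, Ptprc, Csf1r and Pecam1 of the Lep libraries. Pdgfrb was 1228 there against 393.6 and 429.4, Ptprc 21.73 against 5.112 and 4.92, Csf1r 48.57 against 1.278 and 0.7028, and Pecam1 14.06 against 10.22 and 7.731. Of the fibroblast and pericyte list, Pdgfra was also highest in Lep 2, at 1865 against 921.5 and 1366. Dcn, at 177.7 against 216 and 329.6, and Col1a1, at 10.22 against 14.06 and 14.76, were lowest there. Summed over 4 fibroblast and pericyte markers, Lep lay at 1545 to 3281, BrM at 720.5 to 1012, Int at 3329 to 5134 and Par at 4101 to 4420, and over 5 macrophage markers Lep lay at 456.1 to 801.4, against 395.9 to 465.9 in Par, 384.9 to 395.2 in Int and 579.6 to 816.6 in BrM. In this model host cells would share the mouse genes of the line, and their part in the results was not tested.

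Of 23 regulating or accompanying genes in LLC, 0 rose and 4 fell (17.4%) in Lep against Par, beside 8% of all genes higher and 12.3% lower, with 7 higher at an unadjusted p under 0.05 and 0 called higher by edgeR and DESeq2. Mylip, a ubiquitin ligase that liver X receptors induce, had 961.7, 881.6 and 857.2 in Par and fell to 158.5, 429.4 and 209.4 in Lep. Gclm rose in Int from 1072, 1099 and 1113 to 3838 and 4042 and in BrM to 2745 to 2899. Nr1h3 fell in Int from 147.2, 133.4 and 108.2 to 24.66 and 30.39, and lay at 101 to 177.7 in Lep.

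Across models, several members were called in opposite directions, and the difference was not tested between the separately normalized tables. ABCC2 fell in Lep and Int of HCC1954 and PC9 and in BrM of HCC1954, was not called in MDA-MB-231 and was not tested in LLC. ABCC3 fell in Int of HCC1954 and LLC, rose in Int of MDA-MB-231 and had a difference of 0.27 ± 0.07 in Int of PC9. ABCA5 rose in Lep of HCC1954 and fell in Lep of LLC. ABCG2 fell in all derivatives of HCC1954 and was called in no other model, apart from the quantile-normalized call in LLC. ABCC6 was weak in the human models, at 12.15 to 118.9. Besides its calls in HCC1954 it was called higher in Lep of PC9, at 33.01 and 27.58 against 12.15 to 17.17 in Par and 12.94 to 15.76 in BrM, with log2 differences of 1.01 ± 0.28 and 1.02 ± 0.28 just past the size for a call, both lost with a pseudocount of 5 and with the replicate block.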

How the data were processed

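RNA was measured by sequencing of 41 poly(A) libraries made from 500 ng of RNA with paired reads of 50 bases (75 for MDA-MB-231), per the labels' protocols. For each model the authors deposited normalized counts in 1 table, a signal relative to the other libraries of that model. FastQC 0.11.3, HTSeq 0.5.4, DESeq2, and the builds hg19 and mm10 are named in the submitters' processing notes, and no aligner is given in the sources used here. The deposited values of every library were whole multiples of 1 step (100% within a tolerance of 0.01), which returned whole reads and totals.

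Values of at least 10 in at least 2 libraries were tested on log2(value + 1) with limma 3.58.1 (R 4.3.3, trend, Benjamini-Hochberg over all genes tested), with the 4 stages of a model in 1 fit and 5 comparisons per model. Calls needed an adjusted p below 0.05 and a log2 difference of at least 1. All tables were fitted apart. The members and lists were chosen with earlier results of these data known. Values by library are given for a fixed set (ABCB1, ABCC1 to ABCC5, ABCG2, ABCA1, ABCG1, ABCD3, ABCE1) and for called members whose higher stage averaged at least 100, up to the 6 largest per comparison and direction. Other members named are given by range or because they met a count. Lengths come from GENCODE on GRCh38, used for the longest coding transcript only. Pairing by the labels' replicate numbers was asked to give deviations from the stage means that correlated over 0.1 in every same-number pair. Of stages that shared 3 numbers, only Par and BrM of MDA-MB-231 met this, at 0.5, 0.265 and 0.231 for numbers 1 to 3. Libraries with different numbers correlated there too, at 0.337 for Par 3 with BrM 2 and 0.161 for Par 2 with BrM 3. These values therefore do not show pairing by number. Tests were checked on simulated data. Alternatives were a pseudocount of 5, no filter, a replicate block, quantile normalization, only the stages compared, edgeR 4.0.16 (quasi-likelihood) and DESeq2 1.42.0 on recovered reads, each library left out, and a length and GC correction by splines for human genes (88.2% to 88.6% of tested genes and all tested members had a length).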

Additional observations from a re-analysis of the deposited data

Results flagged for a closer look

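These members were called in opposite directions in different models under the same comparison of stages, and the difference between models was not tested because the tables were normalized separately. In Lep against Par, ABCA5 was 1.63 higher on the log2 scale in HCC1954, and Abca5 was at -4.28 in LLC. In Lep against Int, ABCA1 was at 4.59 in HCC1954 and Abca1 at -2.24 in LLC, where it was not called without Int 1 (-1.85, limma, adjusted p = 0.055). In the same comparison ABCA7 was at 1.14 in HCC1954 and Abca7 at -1.08 in LLC, and ABCC3 was at 1.12 in HCC1954 and -3.1 in MDA-MB-231. The HCC1954 calls ended with a length and GC correction, at 0.95 for ABCA7 and 1.00 for ABCC3, and for ABCC3 also with quantile normalization, at 0.76. The MDA-MB-231 call of ABCC3 ended in a fit to those stages alone (limma, adjusted p = 0.15).

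In Int against Par, ABCA1 was at -4.43 in HCC1954 and 3.33 in MDA-MB-231. ABCC3 was at -7.22 in HCC1954, 3.17 in MDA-MB-231 and, as Abcc3, -2.85 in LLC. ABCG1 was at -1.41 in HCC1954 and 1.94 in PC9. With quantile normalization ABCG1 of HCC1954 was at -0.88 and not called. In MDA-MB-231 the call of ABCA1 ended in a fit to those stages alone (limma, adjusted p = 0.078). The calls of ABCA1 and ABCC3 there also ended with either Int library left out.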

How the results depend on the processing

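Signs were compared for the fixed set and for the called members chosen by the rule for library values. Among these, no value of a called member changed sign under the alternatives that were run. Other called members were not compared in this way. Numbers of members called were within 1.5 times the values given in HCC1954, and left-out libraries gave 9 to 9 in Lep against Par. In MDA-MB-231 DESeq2 called 3 in Lep against Par, 3 in Lep against Int and 2 in Lep against BrM, where limma called 0, 1 and 0. The length and GC correction gave 1, 2 and 1 in those comparisons. Fitting only the stages compared gave 3 in Int against Par (7 in the fit of all stages), 0 in Lep against Int and 1 in Lep against BrM. The causes were not tested. Calls over all genes in MDA-MB-231 rose with DESeq2 from 10 to 274 in Lep against Par, 24 to 470 in Lep against Int and 68 to 471 in BrM against Par, and with edgeR were 8, 18 and 49.

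With each library left out in turn, the number of members called in MDA-MB-231 ran from 0 to 1 in Lep against Par, 0 to 1 in Lep against Int and 0 to 9 in Int against Par. In PC9 it ran from 2 to 4 in Lep against Par and 0 to 1 in Lep against Int, and in LLC from 7 to 13 in Lep against Int and 4 to 6 in Int against Par. A stage left with 1 library was assumed to vary like the others.

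Deviations of libraries with the same replicate number correlated at -0.061 to 0.028 in HCC1954, -0.027 to 0.096 in PC9 and -0.109 to 0.142 in LLC, where no 2 stages with 3 shared numbers had every pair over 0.1. In MDA-MB-231 they ran from -0.091 to 0.5, beside -0.435 to 0.418 for libraries with different numbers. With the replicate number as a block, 0 members were called in BrM against Par of MDA-MB-231, as without it, and the members called were 6 in Int against Par of MDA-MB-231, 4 in Lep against Par of PC9 and 13 in Lep against Int of LLC.

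The length and GC correction was not run in LLC, for which no transcript lengths were used. Replicates are few and partly technical, and the depth, in reads per library, is lowest at 16792027 in PC9, so differences in weakly expressed members were not detectable with precision. ABCC6 and the mouse Abcb1a and Abcb1b share sequence with copies.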
